A study of Mus musculus with 2 samples.

Results

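Natural killer (NK) cells were picked out of tumour-infiltrating CD45+ cells by their transcripts. Each transcript was counted as a unique molecular identifier (UMI). A cell barcode was taken as an NK cell when it held at least 3 UMIs summed over the NK receptor genes Ncr1, Klrb1c, Klre1, Klra8 and Klra4. It was allowed at most 1 UMI of Cd3d, Cd3e and Cd3g, no UMI of Cd8b1, Cd4 or Foxp3, at most 1 UMI of Cd79a, Csf1r, C1qa and Siglech, and at most 2 UMIs of the cell cycle genes Mki67, Top2a and Birc5. Only barcodes with 200 or more genes and no more than 15% of UMIs from mitochondrial genes were considered. The cells were thus chosen by measured values, namely the UMIs of the genes just listed. The rule found 416 NK cells among 14624 kept cells, with 219 of 5688 in the KO library and 197 of 8936 in the WT library.

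The cells came from B16F10 tumours, a transplantable mouse melanoma, grown under the skin for 10 days, and the design text names the effect of Kir2.1, a potassium channel of the inward rectifier family encoded by Kcnj2, on the tumour microenvironment as the question. KO mice carried Lyz2-Cre and floxed Kcnj2 (Lyz2-Cre-Kcnj2f/f, also labelled Kcnj2CKO), and WT mice carried the same floxed alleles without Cre (Kcnj2f/f). The ages of the mice are not given in the labels. Each genotype had 1 library made from pooled tumours of 3 mice, so each difference below is one between these libraries, no test of genotype was possible, and all intervals are 95% intervals for counting error only. Cre driven from the Lyz2 locus acts in macrophages, monocytes and neutrophils, and NK cells are not a cell type that this driver is used to target.

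NK cells are innate lymphocytes that kill stressed, infected or transformed cells without a rearranged antigen receptor. Activating receptors such as NKp46 (Ncr1) and NK1.1 (Klrb1c) are weighed against inhibitory receptors for MHC class I, among them members of the Ly49 (Klra) family and NKG2A (Klrc1). Killing is carried out by perforin (Prf1) and granzymes, and NK cells also release interferon-gamma and chemokines. In mice, conventional NK cells depend on the transcription factor Eomes and mature through stages told apart by Cd27 and Itgam (CD11b), whereas the related type 1 innate lymphoid cells (ILC1) lack Eomes and carry CD49a (Itga1) and often the interleukin-7 receptor (Il7r).

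The KO library held 57047535 UMIs in 6356 barcodes and the WT library 55219440 UMIs in 9677 barcodes. The NK cells held 1279823 UMIs in the KO library (median 4603 per cell, range 580 to 25954) and 773845 UMIs in the WT library (median 3516, range 557 to 18892). KO NK cells thus held more UMIs per cell, whereas CD8 T cells held a median of 5441 in KO and 5310 in WT. Less RNA per cell and shallower sequencing cannot be told apart, so a share of cells with a UMI is given below also after thinning. In thinning, each cell was cut at random to 2000 or 1000 UMIs and shallower cells were left out. The libraries shared 63 barcodes, of which 1 was a KO NK cell and 0 were WT NK cells. Kcnj2 (chromosome 11, 111066164 to 111076821, plus strand, GRCm38) had 0 UMIs in the NK cells of both libraries, which allows up to 2.34 CPM (UMIs scaled to 1000000 in all) in KO and 3.88 CPM in WT. In all other kept cells, Kcnj2 had 117 UMIs (2.14 CPM, 1.77 to 2.56) in the KO library and 177 UMIs (3.31 CPM, 2.84 to 3.83) in the WT library. The 3' reads of this assay need not lie in the floxed part of the gene, so these counts do not check the deletion.

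Some cells that met the rule carried genes of other lineages. In the KO library 16 of 219 did so, with a median of 16286 UMIs, and in the WT library 6 of 197, with a median of 11243 UMIs. Of these, 15 KO and 5 WT cells had at least 1% of their UMIs from the antigen presentation genes Cd74, H2-Aa, H2-Ab1 and H2-Eb1. The remaining KO cell carried basophil genes, with 51 UMIs of Hdc, and the remaining WT cell held 349 UMIs of Lyz2. Among the 15 KO cells with high antigen presentation genes, 10 had no Gzma, 10 had no Nkg7 and 9 had Klre1 as their only receptor gene of the rule. Among the 5 such WT cells, 2 lacked Gzma and 0 lacked Nkg7. These cells held 92.6% of the Cd74 UMIs of the KO NK cells and 83.3% of those of the WT NK cells. Values are therefore given for all cells of the rule, or for the 203 KO and 191 WT cells that remained without them, called the lineage-restricted NK cells. This restriction was chosen after the data had been seen.

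In the lineage-restricted cells, the defining genes of type 3 innate lymphoid cells (Il23r, Il22, Il17a) and of basophils and mast cells (Mcpt8, Cpa3, Fcer1a, Ms4a2) were at 0 in both libraries, as were Xcr1 and Clec9a of conventional dendritic cells. Of 9 dendritic cell markers, 7 were detected in KO (650 CPM summed) and 6 in WT (418 CPM). Of 13 T cell markers, 8 were detected in KO (890 CPM) and 11 in WT (1084 CPM), with Cd8b1 and Cd4 at 0 by the rule. Of 8 macrophage markers, 6 summed to 30.7 CPM in KO and 7 to 62.6 CPM in WT. The other lists, for monocytes (6 of 6 detected in both), B cells (7 of 7 in both), neutrophils (2 and 5 of 5) and melanoma cells (4 and 5 of 6), summed to 872, 129, 2.88 and 20.1 CPM in KO and to 943, 203, 11.4 and 21.3 CPM in WT. The part of these transcripts in the differences below was not tested.

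NK cells made up 3.85% (3.37 to 4.38) of the kept cells in the KO library and 2.2% (1.91 to 2.53) in the WT library. Lineage-restricted NK cells made up 3.57% (3.1 to 4.08) in KO and 2.14% (1.85 to 2.46) in WT. Among T and NK cells the share was 15.8% (13.9 to 17.8) in KO and 5.24% (4.55 to 6.01) in WT. CD8 T cells, the cytotoxic T lymphocytes, made up 5.68% (5.09 to 6.31) of kept cells in KO and 17.3% (16.5 to 18.1) in WT, and shares of 1 library sum to a whole, so a share of NK cells does not give their number in a tumour. The kept cells that passed the receptor threshold numbered 332 in each library, of which 85 in KO and 115 in WT were set aside for Cd3 transcripts. The cell cycle limit alone removed 10 of 229 cells in KO (4.37%, 2.11 to 7.88) and 7 of 204 in WT (3.43%, 1.39 to 6.94).

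The rule fixed the receptor genes, so their levels are a description. NK receptor UMIs per cell had a median of 15 (3 to 79) in KO and 11 (3 to 46) in WT. Cells just inside the threshold, with 3 receptor UMIs, numbered 14 in each library, and 35.7% of them held Gzma in KO and 50% in WT. Cells just outside, with 2 receptor UMIs and all other limits met, numbered 42 in KO and 36 in WT, and 14.3% of them held Gzma in KO and 19.4% in WT. Cells above the threshold held Gzma in 85.9% of 205 KO and 86.9% of 183 WT cells. Gzma was thus found less often at 3 receptor UMIs than above, and cells with 3 were shallower, with a median of 3356 UMIs against 4635 above in KO and 1096 against 3598 in WT. The part of depth in these shares was not tested.

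Ncr1 (chromosome 7, 4337724 to 4345164, plus strand), the activating receptor NKp46, had 754 CPM (702 to 808) in KO and 805 CPM (740 to 874) in WT lineage-restricted NK cells. Klrb1c (chromosome 6, 128778485 to 128789215, minus strand), which encodes NK1.1, had 768 CPM (716 to 823) in KO and 721 CPM (660 to 787) in WT. Klre1, a lectin-like NK receptor whose gene lies on the same chromosome (129577905 to 129585827, plus strand), had 929 CPM in KO and 943 CPM in WT. The intervals of the libraries overlapped for these 3 genes. Klra4 and Klra8, the Ly49D and Ly49H activating receptors, had 609 and 460 CPM in KO and 575 and 471 CPM in WT. Klra genes are close copies of each other in a cluster on chromosome 6, so reads can be split among them and each Klra count is uncertain. Klra4 was found in 41.9% of KO and 34% of WT cells, and Klra8 in 40.9% of KO and 35.1% of WT cells. Neither was found in 41.9% (35 to 49.0) of KO and 49.2% (41.9 to 56.5) of WT cells. After thinning to 2000 UMIs, Klra4 was found in 41.3% of KO and 31.9% of WT cells and Klra8 in 35.3% of KO and 29.3% of WT cells.

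**Figure D1:**
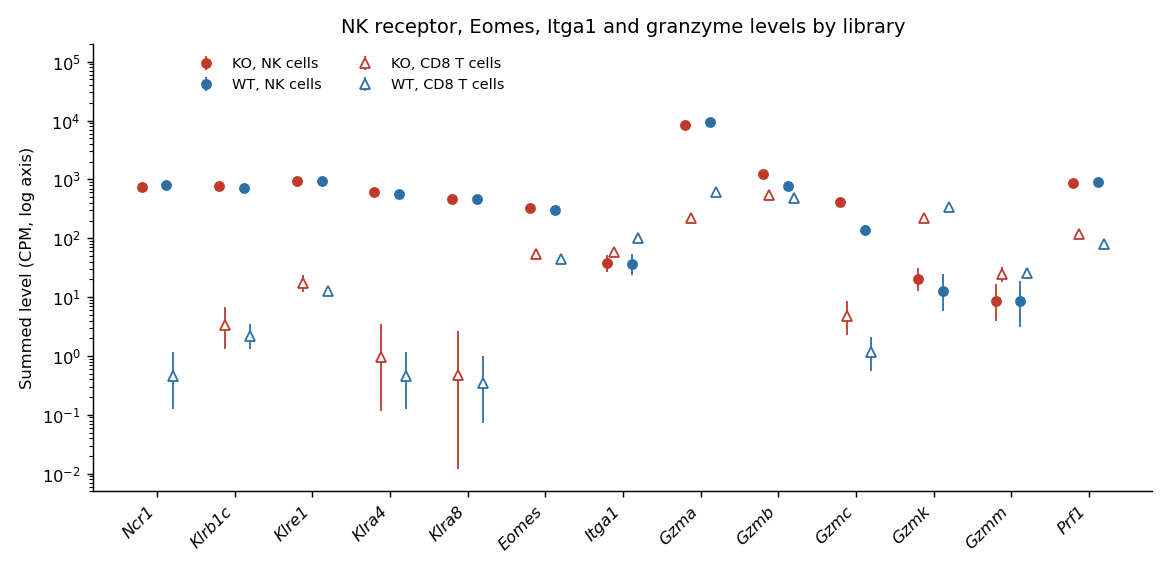
Summed level in CPM on a log axis of the NK receptor genes of the rule, Eomes, Itga1, granzymes and Prf1, in lineage-restricted NK cells (filled circles) and CD8 T cells (open triangles) of the KO (red) and WT (blue) libraries. Bars are exact Poisson 95% intervals and a gene at 0 UMIs has no symbol; Gzma stands highest in NK cells of both libraries, and Gzmb and Gzmc stand higher in KO than in WT NK cells.

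Gzma was the most abundant granzyme of the NK cells, and Gzmb and Gzmc were higher in the lineage-restricted NK cells of the KO library. Gzma (chromosome 13, 113093825 to 113100981, minus strand), a tryptase-like granzyme, had 8261 CPM (8087 to 8437) in KO and 9551 CPM (9324 to 9782) in WT lineage-restricted cells. The log2 ratio of KO over WT was -0.21 (-0.26 to -0.16). Per cell, the quartiles of Gzma were 16.3, 67.3 and 155.6 UMIs per 10000 in KO and 16.2, 76.3 and 155.3 in WT. The outer quartiles were nearly equal and the medians stood further apart. In all cells of the rule, Gzma had 6907 CPM in KO and 8807 CPM in WT, a log2 ratio of -0.35.

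Gzmb (chromosome 14, 56258838 to 56262260, minus strand), the granzyme that cleaves caspases in target cells, had 1224 CPM (1158 to 1294) in KO and 762 CPM (699 to 830) in WT lineage-restricted cells. The log2 ratio was 0.68 (0.54 to 0.83). It was found in 65.0% (58.0 to 71.6) of KO and 55.0% of WT cells, and its median was 4.09 UMIs per 10000 in KO and 3.16 in WT. The gap was wider in the upper tail, where the 90th percentile was 29.2 per 10000 in KO and 17.9 in WT. Thinned to 2000 UMIs, the share with Gzmb was 58.7% of 184 KO cells and 54.1% of 157 WT cells. In all cells of the rule the levels were 1006 CPM in KO and 699 CPM in WT (log2 0.52), which does not pass 1.5-fold. It did not pass either without the lineage-restricted cells that held at least 2 Gzmc UMIs, where Gzmb had 1031 CPM in KO and 753 CPM in WT (log2 0.45, 0.30 to 0.61).

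Gzmc (chromosome 14, 56231441 to 56234656, minus strand), a granzyme of the same gene cluster as Gzmb, had 421 CPM (382 to 462) in KO and 138 CPM (112 to 168) in WT lineage-restricted cells, a log2 ratio of 1.61 (1.29 to 1.94). A few cells carried it. It was found in 11.8% of KO and 5.76% of WT cells, and the 5 cells with most Gzmc held 79.0% of the 439 KO UMIs and 93.8% of the 97 WT UMIs. Thinned to 2000 UMIs, 9.78% of KO and 5.10% of WT cells held it. Gzmd had 18 UMIs in 2 KO cells and Gzme 24 UMIs in 3 KO cells, against 0 UMIs of both in WT cells. Gzmf and Gzmg were at 0 in both libraries.

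Perforin and the other granzymes differed little or were scarce. Prf1 (chromosome 10, 61297833 to 61304680, plus strand), the pore-forming protein that delivers granzymes, had 874 CPM in KO and 899 CPM in WT lineage-restricted cells, a log2 ratio of -0.04. It was found in 76.4% of KO and 73.3% of WT cells, and after thinning in 62.5% of KO and 69.4% of WT cells. Gzmk was found in 5.91% of KO and 4.19% of WT cells, and Gzmm had 9 UMIs in KO and 6 in WT. B cells, which should lack these genes, held a UMI of Gzma in 2.40% of KO and 3.64% of WT cells, of Gzmb in 0.901% and 3.20%, of Gzmc in 0.300% and 0.0888%, and of Prf1 in 1.20% and 0.444%. The median depth of lineage-restricted NK cells was 4453 UMIs in KO and 3423 in WT, against 3315 in KO and 2889 in WT for B cells. All 4 NK shares lay above these background shares.

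Gzma and Gzmb together were found in 63.1% (56.0 to 69.7) of KO and 52.9% (45.5 to 60.1) of WT cells, and Gzma without Gzmb in 23.2% of KO and 31.9% of WT cells. Gzmb without Gzma was rare, at 1.97% of KO and 2.09% of WT cells. Gzma, Gzmb and Prf1 were all found in 59.1% (52.0 to 65.9) of KO and 47.6% (40.4 to 55.0) of WT cells. No granzyme A or B was found in 11.8% of KO and 13.1% of WT cells. The intervals of the libraries overlapped for each of these shares, and KO cells held more UMIs.

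The killing list had 20 genes, of which 13 were measured, that is, had a mean of at least 50 CPM over both libraries. Of these 13, 2 (Gzmb and Gzmc) were higher in KO and 0 lower in lineage-restricted cells, against 1 higher (Gzmc) and 0 lower in all cells of the rule. Gzmd, Gzme and Gzmk were past 1.5-fold below that level, the first pair in 2 and 3 KO cells as given above, and Gzmk with 21 UMIs in KO and 9 in WT (log2 0.65, -0.53 to 1.96). Across all measured genes, 118 of 2952 (4%) were higher and 129 (4.37%) lower past 1.5-fold in all cells of the rule, or 8.37% either way. In lineage-restricted cells 72 of 2980 (2.42%) were higher and 101 (3.39%) lower, or 5.81% either way, and the median log2 ratio was -0.02. The median of the killing list was -0.04. Nkg7, a granule protein, had 2725 CPM in KO and 3125 CPM in WT cells.

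Eomes and Itga1 split the cells unevenly. Eomes (chromosome 9, 118478212 to 118486132, plus strand) had 333 CPM (299 to 370) in KO and 300 CPM (261 to 343) in WT lineage-restricted cells. In all cells of the rule it was found in 57.5% (50.7 to 64.2) of KO and 50.3% (43.1 to 57.4) of WT cells, and in lineage-restricted cells in 60.1% and 49.7%. Thinned to 2000 UMIs, these shares in all cells of the rule were 37.2% in KO and 34.4% in WT. Eomes was found in 0 of 333 KO B cells, which by the floor of 3 counts allows up to 0.901% of cells with a UMI (exact interval 0 to 1.10%), and in 0.266% of WT B cells. The share with Eomes was thus lower at fewer UMIs per cell in both libraries.

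Itga1 (chromosome 13, 114953096 to 115101964, minus strand), the alpha 1 integrin CD49a, was low in NK cells, with 37.4 CPM (26.6 to 51.1) in KO and 37.0 CPM (24.2 to 54.2) in WT lineage-restricted cells. It was found in 14.2% (9.82 to 19.5) of KO and 7.61% (4.32 to 12.2) of WT cells of the rule. The intervals of the summed levels overlapped. Thinned to 2000 UMIs, the share was 6.53% in KO and 4.91% in WT, and in lineage-restricted cells 5.98% in KO and 3.82% in WT. Thinned to 1000 UMIs, it was 2.79% in KO and 3.30% in WT (6 cells each), and in lineage-restricted cells 3.52% in KO and 2.84% in WT. At least 2 UMIs of Itga1 were held by 3.65% of KO and 4.06% of WT cells. The order of the libraries thus held at 2000 UMIs and turned in all cells of the rule at 1000 UMIs or from 2 Itga1 UMIs. B cells held a UMI of Itga1 in 0.901% of KO and 0.533% of WT cells, and CD8 T cells in 22.6% of KO and 31.7% of WT cells.

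By both genes, Eomes+Itga1- cells made up 49.8% (43.0 to 56.6) in KO and 46.7% (39.6 to 53.9) in WT. Cells with neither gene made up 36.1% in KO and 45.7% in WT. Eomes+Itga1+ cells made up 7.76% in KO and 3.55% in WT. Eomes-Itga1+ cells, the combination used for ILC1, numbered 14 in KO (6.39%, 3.54 to 10.5) and 8 in WT (4.06%, 1.77 to 7.84). The intervals of the libraries overlapped for this group, and thinned to 1000 UMIs it made up 2.33% in KO and 3.30% in WT. Which group was largest also turned with depth: thinned to 2000 UMIs, cells with neither gene made up 57.8% in KO and 61.3% in WT, and Eomes+Itga1- cells 35.7% in KO and 33.7% in WT.

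**Figure D2:**
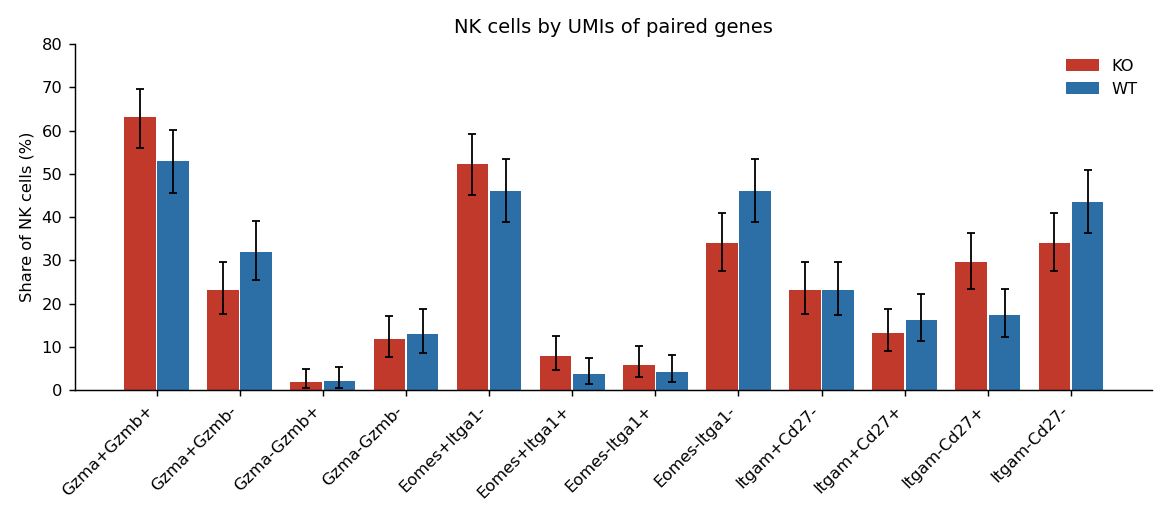
Share of lineage-restricted NK cells, in percent, by UMIs of Gzma and Gzmb, of Eomes and Itga1, and of Itgam and Cd27, in the KO (red) and WT (blue) libraries. Bars are shares and lines exact binomial 95% intervals; cells with both Gzma and Gzmb make up 63.1% in KO and 52.9% in WT, and Itgam-Cd27+ cells 29.6% and 17.3%.

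Eomes-Itga1+ cells were set against Eomes+Itga1- cells within each library, and a gene was counted when it was past 2-fold the same way in both. Of 2807 measured genes, 47 (1.67%) were higher and 20 (0.713%) lower. Receptor genes led the lower genes. Klra3, the Ly49C receptor gene, had a log2 ratio of -2.52 (-4.42 to -1.14) in KO and -2.48 in WT, and Klra8 had -2.28 in KO and -2.76 in WT. Klra8 was used to choose the cells, and reads can be split among Klra genes, so both ratios are a description only. Satb1, a chromatin organiser, had -1.57 in KO and -1.72 in WT. In the Eomes-Itga1+ cells of WT, Klra3 and Klra8 rested on 1 UMI each and Satb1 on 2, so the WT ratios are imprecise. Other named lower genes were Cst7, Ndufa11, Phlda1, Ly6a, Tcf12 and Serpina3g.

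Named higher genes included Sag, Slco3a1, Rgs10, Creg1, Ahcyl2, Gins4, Lyrm2, Slc35b3 and Isyna1. Each rested on 1 to 3 UMIs in the 8 WT cells, where 1 UMI equals 52.2 CPM, against 11 CPM in the 14 KO cells. In lineage-restricted cells 99 of 2832 genes (3.5%) were higher and 32 (1.13%) lower. Klra3 and Klra8 were among the lower genes there too, with log2 ratios of -2.24 and -1.76 in KO.

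Splitting the lineage-restricted cells by Eomes alone gave larger groups, with 81 Eomes- and 122 Eomes+ cells in KO and 96 and 95 in WT. This and the splits that follow were chosen after the data had been seen. Of 2968 genes, 5 (0.168%) were higher and 3 (0.101%) lower in Eomes- cells in both libraries. Il7r, the interleukin-7 receptor chain, had 35 UMIs in Eomes- against 5 in Eomes+ cells in KO and 51 against 4 in WT, with log2 ratios of 3.74 and 4.11. Tmem176b, a membrane protein of innate lymphoid and myeloid cells, had log2 ratios of 2.24 in KO and 2.55 in WT. Ly6c2 (1.13 in KO, 2.48 in WT) and the migration receptor Gpr183 (1.06 in KO, 2.16 in WT) were also higher.

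Lower in Eomes- cells were Klra1, the inhibitory receptor Ly49A (-1.65 in KO, -1.16 in WT), Myb, a transcription factor of immature and proliferating cells (-1.82 in KO, -1.05 in WT), and the chemokine gene Cxcl10 (-1.27 in KO, -3.71 in WT). Of the 56 WT Cxcl10 UMIs, 24 and 21 lay in 2 cells, and without the cell of most UMIs of a gene in each library Cxcl10 had -0.68 in KO and Myb -0.90 in WT, neither past 2-fold. Summed granzyme and perforin levels were close between the groups. Gzma had log2 ratios of 0.37 in KO and 0.10 in WT, Gzmb 0.30 and 0.23, and Prf1 0.11 and 0.13. By share, Gzmb was found in 60.5% (49.0 to 71.2) of Eomes- and 68.0% (59.0 to 76.2) of Eomes+ cells in KO, and in 45.8% (35.6 to 56.3) and 64.2% (53.7 to 73.8) in WT. Gzma was found in 76.5% (65.8 to 85.2) of Eomes- and 92.6% (86.5 to 96.6) of Eomes+ cells in KO. In WT these Gzma shares were 78.1% (68.5 to 85.9) and 91.6% (84.1 to 96.3). Eomes- cells were shallower, with a median of 3885 UMIs against 4776 in KO and 2909 against 3835 in WT, and the part of depth in these shares was not tested.

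Itga1+ cells (28 in KO, 15 in WT) had 7 genes (0.237%) higher and 15 (0.509%) lower of 2949 than Itga1- cells. Ccl3, a chemokine made by activated NK cells, was higher, with log2 ratios of 1.33 in KO and 1.95 in WT, but 1 Itga1+ cell held 100 Ccl3 UMIs in KO and 1 held 91 in WT. Without these cells Ccl3 had -0.04 (-0.47 to 0.37) in KO and 0.15 (-0.48 to 0.72) in WT. Spp1, which encodes osteopontin, was lower, with -2.27 in KO and -2.91 in WT. It too rested on few cells, since 1 Itga1- cell held 147 of 254 Spp1 UMIs in KO and 1 held 35 of 65 in WT, and the WT Itga1+ cells held 1 UMI. Without these cells Spp1 had -1.06 (-2.23 to -0.08) in KO and -1.83 (-7.18 to 0.76) in WT. Gzmb had log2 ratios of -0.99 in KO and -0.41 in WT, and Gzma of -0.03 in KO and -0.17 in WT, neither of which passed 2-fold in both libraries.

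Cells with Gzmb (132 in KO, 105 in WT) and cells without it (71 in KO, 86 in WT) differed in Prf1, Gzma and Il7r among others. Of 2996 genes, 10 (0.334%) were higher and 10 (0.334%) lower in Gzmb+ cells in both libraries. Higher were Serpinb9b, a serine protease inhibitor (log2 4.30 in KO, 2.16 in WT), Cma1, a chymase (2.2 in KO, 1.49 in WT), Klrg1, a receptor of mature NK cells (1.82 in KO, 1.35 in WT), and Ly6c2 (1.82 in KO, 2.30 in WT). Prf1 was higher by log2 1.88 in KO and 1.26 in WT, and Gzma by 1.45 in KO and 1.29 in WT. Slamf7, an activating receptor, and Tnfrsf9 (4-1BB), a receptor of activated lymphocytes, were also higher in both. Without the cell of most Tnfrsf9 UMIs in each library, Tnfrsf9 had 0.99 in KO and 0.76 in WT, not past 2-fold.

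Lower in Gzmb+ cells were Il7r (-3.43 in both libraries), Gpr183 (-2.45 in KO, -2.02 in WT), Tmem176b (-1.72 in KO, -2.23 in WT), Emb, an adhesion glycoprotein (-1.54 in KO, -1.39 in WT), and the transcription factor genes Ikzf2 (-1.34 in KO, -1.71 in WT) and Maf (-1.33 in KO, -1.31 in WT). Ltb, a lymphotoxin of immature NK cells, was also lower. Eomes itself had log2 ratios of -0.20 in KO and 0.09 in WT. Cells with Gzmb had a median of 4672 UMIs against 4181 without it in KO, and 3716 against 2909 in WT.

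By the maturation genes, Itgam+Cd27- cells made up 23.2% in KO and 23.0% in WT, and Itgam-Cd27+ cells made up 29.6% (23.4 to 36.3) in KO and 17.3% (12.2 to 23.4) in WT. Cells with both genes made up 13.3% in KO and 16.2% in WT, and cells with neither 34% in KO and 43.5% in WT. Thinned to 2000 UMIs, Cd27 was found in 24.5% of KO and 19.1% of WT cells and Itgam in 24.5% of KO and 29.3% of WT cells.

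The Itgam+Cd27- cells (47 in KO, 44 in WT) stood furthest from the Itgam-Cd27+ cells (60 in KO, 33 in WT) in genes known from mature circulating NK cells, with 33 of 2983 genes (1.11%) higher and 29 (0.972%) lower in both libraries. Of 12 measured genes of the circulating and mature list, 6 were higher and 1, Emb, lower. Zeb2, a transcription factor of terminal maturation, had log2 ratios of 1.91 in KO and 1.84 in WT. S1pr5, the egress receptor of mature NK cells, had 1.78 in KO and 4.15 in WT, Cx3cr1, the fractalkine receptor, 5.36 in KO and 1.73 in WT, and Klrg1 1.57 in KO and 3.36 in WT. The WT value of S1pr5 rests on 20 against 1 UMIs and the KO value of Cx3cr1 on 24 against 1. Gzma (1.56 in KO, 1.43 in WT), Gzmb (1.36 in KO, 1.52 in WT), Prf1 (1.54 in KO, 1.31 in WT) and the chemokine Ccl5 (1.54 in KO, 1.55 in WT) were higher as well. Without the cell of most Gzmb UMIs in each library, Gzmb had 1.06 in KO and 0.98 in WT, the WT value just short of 2-fold. Lower were Ltb (-2.13 in KO, -2.25 in WT), Gpr183, Cd28 and Myb (-1.47 in KO, -1.59 in WT). Eomes had log2 ratios of -0.15 in KO and 0.03 in WT.

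**Figure D3:**
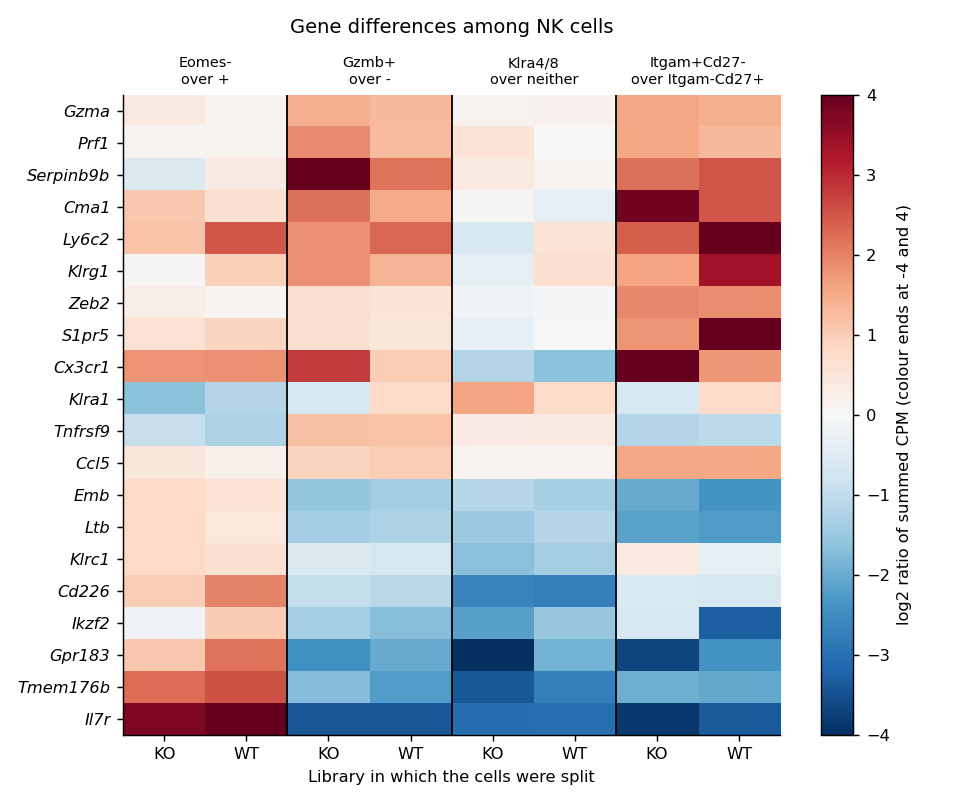
Heat map of log2 ratios of summed CPM for 20 genes (rows) in 4 splits of the lineage-restricted NK cells, with the KO column left of the WT column in each split and colours ending at -4 and 4. Il7r is lower in Gzmb+ cells and in cells with Klra4 or Klra8 and higher in Eomes- cells of both libraries, and Gzma and Prf1 are higher in Gzmb+ and in Itgam+Cd27- cells.

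Cells with at least 2 UMIs of Klra4 and Klra8 (110 in KO, 88 in WT) and cells with neither (85 in KO, 94 in WT) differed again in Il7r and Tmem176b. These receptors are part of the rule, so cells with neither had to hold 3 UMIs of the other receptor genes. Of 2975 genes, 2 (0.0672%) were higher and 12 (0.403%) lower in the Klra4 or Klra8 cells. Lower were Il7r (-3.06 in KO, -3.02 in WT), Tmem176b (-3.39 in KO, -2.74 in WT), the adhesion receptor Cd226 (DNAM-1; -2.65 in KO, -2.72 in WT), Gpr183, Ikzf2, Klrb1b and Klrc1, the NKG2A receptor (-1.66 in KO, -1.34 in WT). The 2 higher genes were Spp1 (2.38 in KO, 3.62 in WT) and Phactr3 (3.35 in KO, 1.09 in WT). One cell of the Klra4 or Klra8 group held 147 of 191 Spp1 UMIs in KO and 1 held 35 of 61 in WT. Without the cell of most UMIs in each library, Spp1 had 0.32 in KO and 2.45 in WT and Phactr3 3.04 in KO and 0.86 in WT, so neither was past 2-fold in both.

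Il7r was found in 15 KO (7.39%, 4.19 to 11.9) and 22 WT (11.5%) lineage-restricted cells. Of these, 26.7% in KO and 18.2% in WT held Eomes, 46.7% and 50% held Gzma, and 66.7% and 72.7% held neither Klra4 nor Klra8. Cells with Il7r or Tmem176b numbered 36 in KO (17.7%) and 29 in WT (15.2%). Gzma was found in 58.3% of them in KO and 55.2% in WT, against 92.2% and 90.1% of all other lineage-restricted cells. Itgam was found in 13.9% of them in KO and 17.2% in WT, against 41.3% and 43.2% of the others. Il7r and Tmem176b were picked from the splits above of these same cells, so the Eomes, granzyme and Klra shares restate those splits. The part of depth in these shares was not tested. Cells with Il7r or Tmem176b were present in both libraries at shares with overlapping intervals.

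Cells with at least 2 Gzmc UMIs were taken as a further group, with 16 of 203 cells in KO (7.88%, 4.57 to 12.5) and 2 of 191 in WT (1.05%, 0.127 to 3.73). They were deep, with medians of 9090 UMIs in KO and 13318 in WT, against 4270 and 3344 in cells without Gzmc. The part of depth in these shares was not tested. The KO group was mixed: 1 cell with 6 Gzmc UMIs and 1 with 3 held no Gzma, Gzmb, Prf1 or Eomes. The KO cell with the most Gzmc held 24331 UMIs, among them 147 of Gzmc, 147 of Spp1, 82 of Ccl1 and 96 of Gzmb. The second KO cell held 78 UMIs of Gzmc with 12 of Gzmd and 19 of Gzme, and the third 53 of Gzmc with 142 of Ccl1. The 2 WT cells held 70 and 18 Gzmc UMIs.

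Against cells without Gzmc (179 in KO, 180 in WT), 90 of 2699 genes (3.33%) were higher and 98 (3.63%) lower in both libraries, with only 2 WT cells behind the WT value. Higher were Spp1 (5.59 in KO, 4.78 in WT), Il2ra, the interleukin-2 receptor alpha chain (5.15 in both), Tnfrsf9 (2.74 in KO, 3.09 in WT) and Xcl1, a chemokine for dendritic cells (1.47 in KO, 2.47 in WT). Of 11 measured genes of glycolysis and hypoxia, 7 were higher, with a median log2 ratio of 1.64 in KO and 1.36 in WT, among them Gapdh (2.06 in KO, 1.19 in WT), Pgk1 (2.36 in KO, 1.53 in WT) and Ldha (1.76 in KO, 1.36 in WT), enzymes of glucose breakdown and lactate formation. Of the 2 WT cells, the cell with 70 Gzmc UMIs held 35 Spp1, 0 Il2ra and 3 Tnfrsf9 UMIs. The cell with 18 Gzmc UMIs held 0, 6 and 19 of these. The WT values of several other genes also rested on 1 cell, which held 161 Xcl1, 27 Gapdh or 18 Ldha UMIs. Without the cell of most UMIs, the other WT cell held 0 Xcl1 UMIs, and Gapdh had 0.27 and Ldha -0.23 in WT, against 1.85 and 1.38 in KO. Lower were Ccl5 (-1.93 in KO, -3.72 in WT), Cd7, a lymphocyte surface receptor (-3.52 in KO, -3.81 in WT), Klf2, a transcription factor linked to recirculation, Itga2, and the immediate early genes Fos (-1.43 in KO, -3.67 in WT) and Jun (-1.47 in KO, -1.54 in WT).

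**Figure D4:**
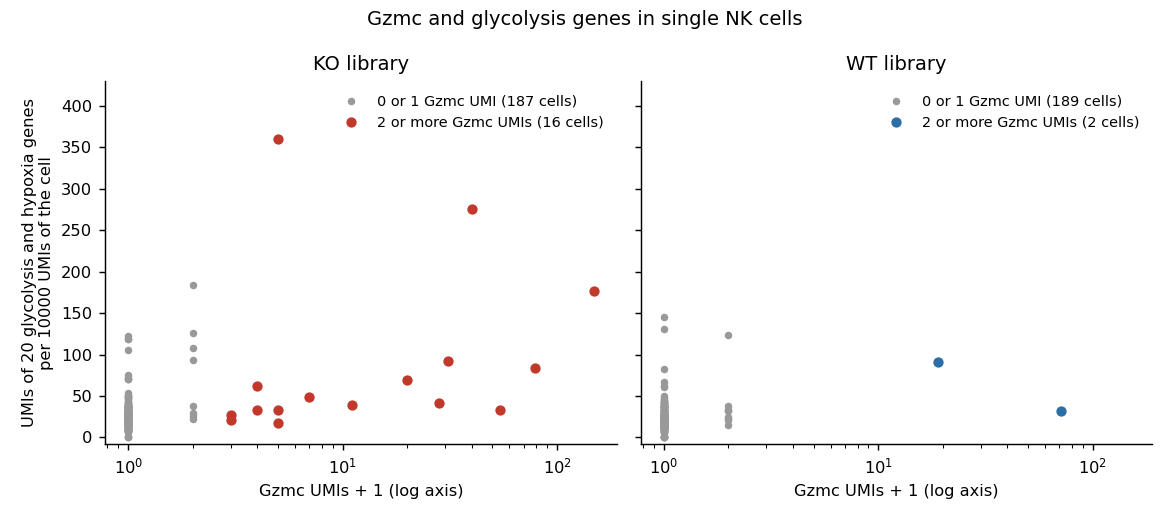
UMIs of 20 glycolysis and hypoxia genes per 10000 (vertical axis) against Gzmc UMIs plus 1 (horizontal log axis) in each lineage-restricted NK cell, with KO in the left and WT in the right panel. Marked cells have at least 2 Gzmc UMIs (16 in KO, 2 in WT); they reach the highest values on both axes in KO.

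Setting the libraries side by side, glycolysis and hypoxia was the list with most genes higher in KO NK cells. In lineage-restricted cells 7 of 12 measured genes were higher and 0 lower past 1.5-fold, with a median log2 ratio of 0.61 against -0.02 for all genes. Of all measured genes, 2.42% were higher in these cells. Eno1 (enolase) had 478 CPM (436 to 521) in KO and 255 CPM (219 to 295) in WT, Aldoa (aldolase) 586 and 336 CPM, and Gapdh 1111 and 676 CPM. The log2 ratios were 0.91 (0.66 to 1.16) for Eno1, 0.80 (0.58 to 1.03) for Aldoa, 0.72 (0.56 to 0.87) for Gapdh, 0.86 for Tpi1, 0.75 for Pgk1 and 0.62 for Ldha. Vegfa had 0.60 (-0.06 to 1.28). In all cells of the rule 5 of 11 were higher, with a median of 0.58, where 4% of all measured genes were higher.

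The Gzmc cells held much of this difference. Without cells of at least 2 Gzmc UMIs, 2 of 11 genes (Tpi1 and Eno1) were higher, against 61 of all 2994 measured genes (2.04%), and the median was 0.21. Without the 1 or the 2 cells with most Gzmc in each library, 4 of 12 were higher and the medians were 0.51 and 0.55. Per cell, the median of the 20 genes of the list was 27.1 UMIs per 10000 in KO and 23.4 in WT. KO cells with at least 2 Gzmc UMIs ranged from 17.4 to 359.7 UMIs per 10000. CD8 T cells had medians of 33.3 in KO and 35.5 in WT and B cells of 18.8 in KO and 21.1 in WT. By summed levels, 2 of 11 genes were higher in KO CD8 T cells (median 0.25), where 3% of all 2665 measured genes were higher. In KO T cells with NK receptors 2 of 11 were higher (median 0.17), where 6.23% of all 2791 were. In B cells 0 of 10 were higher and 2 lower (median -0.38), where 2.33% of all 2623 were higher and 4.19% lower.

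Of 10 heat shock genes, 4 were lower and 0 higher in KO NK cells, in lineage-restricted cells and in all cells of the rule: Hspa1a, Hspa1b, Hsph1 and Dnajb1, which encode inducible chaperones and a co-chaperone. Of all measured genes, 3.39% were lower in lineage-restricted cells and 4.37% in all cells of the rule. Per lineage-restricted cell, the 10 genes together had a median of 41.0 UMIs per 10000 in KO and 43.0 in WT. Hspa1a had 240 CPM (211 to 271) in KO and 491 CPM (440 to 545) in WT lineage-restricted cells, a log2 ratio of -1.03 (-1.27 to -0.79). Hspa1b had -0.87, Hsph1 -0.80 and Dnajb1 -0.71, while the list had a median of -0.07. The other 6 lay within 1.5-fold, among them Hspa8 at -0.12, Hsp90aa1 at 0.01, Hsp90ab1 at 0.39 (0.29 to 0.50) and the mitochondrial chaperone gene Hspd1 at 0.57 (0.20 to 0.94). T cells with NK receptors had 2 of 10 lower, with Hspa1a at -0.91 (-1.21 to -0.62), where 5.73% of all measured genes were lower. CD8 T cells had 0 of 10 past 1.5-fold, with Hspa1a at -0.11, where 1.46% of all were lower. B cells had 0 of 10 lower and 1, Dnaja1, higher at 0.60 (0.47 to 0.72), with Hspa1a at 0.13.

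**Figure D5:**
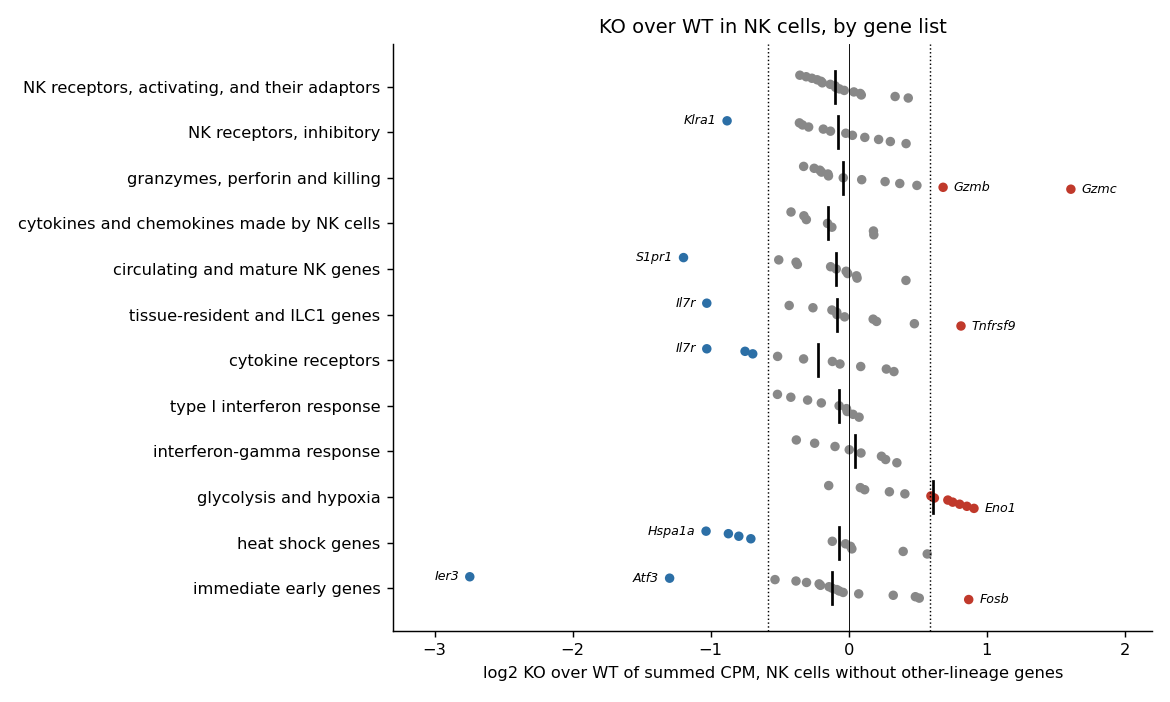
Log2 ratio of KO over WT summed CPM (horizontal axis) for each measured gene of 12 lists (rows) in lineage-restricted NK cells, with a black bar at the median of a list and dotted lines at 1.5-fold. Red points are higher and blue points lower past 1.5-fold; 7 of 12 glycolysis and hypoxia genes are higher, 4 of 10 heat shock genes are lower, and the activating receptors all lie between the lines.

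Few receptor genes were past 1.5-fold, as was the case for 5.81% of all measured genes, and Ncr1, Klrb1c, Klre1, Klra4 and Klra8 were used to choose the cells. Of 16 activating receptors and adaptors 0 were past 1.5-fold in lineage-restricted cells (median -0.10), and of 15 in all cells of the rule 0 were. Of 12 inhibitory receptors 1, Klra1, was lower, with 87.3 CPM (70.3 to 107) in KO and 161 CPM (132 to 193) in WT and a log2 ratio of -0.88 (-1.30 to -0.47), found in 23 KO and 21 WT cells. Tyrobp (DAP12), the adaptor of activating receptors, had 2758 CPM in KO and 3232 CPM in WT.

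Of 10 cytokine receptors 3 were lower and 0 higher in KO lineage-restricted cells, where 3.39% of all measured genes were lower. Il7r had 40 UMIs in KO and 55 in WT (log2 -1.03, -1.65 to -0.41), and the interferon receptor chains Ifnar1 and Ifnar2 had log2 ratios of -0.70 (-1.08 to -0.31) and -0.75 (-1.32 to -0.19). The type I interferon response list had 0 of 9 genes past 1.5-fold in these cells. In all cells of the rule it had 2 of 12 higher, and the interferon-gamma list 3 of 10 (Gbp2, Gbp5 and Cd274), against 0 of 8 in lineage-restricted cells. Of all measured genes, 4% were higher in all cells of the rule. Most of the 32 type I genes lay below 50 CPM. Among those, in all cells of the rule, Ifit1 had 32 UMIs in KO and 1 in WT (4.27, 1.69 to 9.62). Oasl2 had 58 and 5 (2.81), Ifit2 47 and 7 (2.02), Rsad2 33 and 6 (1.73) and Rtp4 60 and 11 (1.72). Others lay within 1.5-fold, among them Oasl1 (0.15), Slfn1 (0.16), Mx1 (0.22) and Ifi44 (0.35). Irf9 (-0.18) and Stat2 (-0.12) went the other way. These counts include the cells with other-lineage genes. In lineage-restricted cells, Gbp2 had a log2 ratio of -0.12 (-0.96 to 0.74) and Cd274 0.35 (-0.25 to 0.97). Gbp5 was still past 1.5-fold there, with 53.7 CPM in KO and 31.3 CPM in WT (0.78, 0.04 to 1.56), but its mean was below 50 CPM.

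Of 7 measured cytokines and chemokines 0 were past 1.5-fold in lineage-restricted cells, against 5.81% of all measured genes. Ccl5 had 11134 CPM in KO and 13777 CPM in WT (log2 -0.31), Xcl1 had 1103 and 1381 CPM (-0.32), and Ifng, which encodes interferon-gamma, had 126 CPM (105 to 149) and 168 CPM (139 to 201), a log2 ratio of -0.42. Of 11 genes of circulating and mature NK cells 1, S1pr1, was lower, with 33 UMIs in KO and 51 in WT (-1.20, -1.87 to -0.54). This egress receptor was also lower in KO among T cells with NK receptors (-0.59, -1.15 to -0.05). The same held for CD8 T cells (-0.28, -0.49 to -0.08) and B cells (-0.35, -0.52 to -0.18). All kept cells other than NK cells had -2.19 (-2.27 to -2.10). That pool differs in cell types between the libraries, with CD8 T cells at 5.68% of kept cells in KO and 17.3% in WT. The part of cell type shares in its value was not tested. Of 11 tissue-resident and ILC1 genes Tnfrsf9 was higher (235 CPM in KO and 134 CPM in WT, log2 0.81, 0.46 to 1.17) and Il7r lower. Without the Gzmc cells Tnfrsf9 had 0.33 (-0.11 to 0.77).

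The remaining lists held few genes past 1.5-fold in lineage-restricted cells, where 2.42% of all measured genes were higher and 3.39% lower. Of 14 lymphoid transcription factors, 0 were higher and 1, Ikzf3, was lower. Of 10 chemokine receptors and adhesion genes 0 were past the fold, of 10 NF-kappaB feedback genes the survival genes Bcl2a1b and Bcl2a1d were higher, and of 6 proliferation genes Tubb5 and Pcna were higher. Bcl2a1b and Bcl2a1d are close copies, so their counts are uncertain. Of 17 immediate early genes Fosb was higher and Ier3 and Atf3 lower, with 96 of the 113 Ier3 UMIs of the WT library in 1 cell. Of 7 mitochondrially encoded genes 1, mt-Nd3, was higher, with 423 CPM in KO and 149 CPM in WT (log2 1.5, 1.19 to 1.82). This gene was also higher in KO B cells (1.36, 1.21 to 1.52), CD8 T cells (1.18, 1.04 to 1.32) and T cells with NK receptors (1.19, 0.80 to 1.60).

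The genes with the lowest ratios in all cells of the rule were led by genes of 1 WT cell. Cxcl3, a neutrophil chemokine, had 3 UMIs in KO and 126 in WT, and 1 WT cell held 125 of them. The same cell held 160 of the 173 WT UMIs of Thbs1 and 50 of the 124 WT UMIs of Hist1h2bc. It had 14854 UMIs, with 703 of Cxcl2 as well as 5 of Klre1, 5 of Klrb1c, 6 of Klra4, 14 of Gzma and 11 of Nkg7, and 0 of the myeloid genes Csf3r, S100a8 and Csf1r.

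The other named lower genes were spread over more cells. Phactr3, a phosphatase regulator, had 40 UMIs in KO and 57 in WT (log2 -1.24, -1.86 to -0.63). Maf, a transcription factor, had 85.2 CPM in KO and 172 CPM in WT (-1.01, -1.39 to -0.64), and T cells with NK receptors had -1.34 (-2.06 to -0.65) for the same gene. For Maf, CD8 T cells had -0.01 (-0.36 to 0.32) and B cells -0.10 (-0.64 to 0.41). Ifitm10 (-1.08), Chfr (-1.07), Klra1 (-1.04), Rnf43 (-1.03) and Brd9 (-1.0) made up the 10. In T cells with NK receptors, Klra1 went the other way, at 0.33 (-0.08 to 0.74). Lineage-restricted cells gave S1pr1, Hspa1a and Cdc42ep3 in place of Klra1, Rnf43 and Maf.

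Ccl1, a chemokine, led the higher genes, with 227 UMIs in KO and 2 in WT, of which 142 and 82 lay in 2 KO cells. The others were Hmgcs1, Bcl2a1d, Bcl2a1b, Ms4a4c, Gzmc, Plscr1, Etv3, Nr4a3 and Cxcl9, with log2 ratios between 1.32 and 2.74. Several rested on the cells with other-lineage genes: Cxcl9, an interferon-induced chemokine, had 409 UMIs in KO and 99 in WT in all cells of the rule, but 4 in KO and 2 in WT in lineage-restricted cells. Hmgcs1, an enzyme of sterol synthesis, had a log2 ratio of 2.74 in all cells and 0.93 (-0.05 to 2.02) in lineage-restricted cells, and Ms4a4c had 1.58 and 0.23. Etv3 had 1.36 and 0.43 (-0.15 to 1.03), and Nr4a3 had 1.33 and 0.48 (0.01 to 0.97). Plscr1, an interferon-induced membrane protein, had 1.39 and 1.0 (0.45 to 1.59). Kept cells other than NK cells had 1.53 for Nr4a3, 1.15 for Cxcl9, 1.03 for Ms4a4c and 1.02 for Etv3. They had 0.31 (Plscr1) to 0.72 (Bcl2a1d) for the rest of these higher genes, but -0.46 for Ccl1. The cell types of this pool differ in share between the libraries, and the part of that in these values was not tested.

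Lineage-restricted cells named Spp1, Bccip, Paics, Hmgn5, Calr, Rtcb and Rasa2 in addition. Calr, the chaperone calreticulin, had 455 CPM in KO and 230 CPM in WT (0.98, 0.72 to 1.25), and without the Gzmc cells 0.61 (0.32 to 0.91). Spp1 had 263 UMIs in KO and 66 in WT (1.43, 1.03 to 1.84), of which 147 lay in 1 KO cell, and -0.69 (-1.51 to 0.11) without the Gzmc cells. Bccip and Paics, an enzyme of purine synthesis, had 78 UMIs each in KO against 25 and 26 in WT.

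T cells with NK receptors, which met the receptor threshold but carried T cell transcripts (74 in KO, 81 in WT), gave the nearest comparison in the same libraries. Gzmc, at a log2 ratio of 1.61 in lineage-restricted NK cells, had 270 UMIs in KO and 82 in WT in these T cells (1.78, 1.42 to 2.16), with 198 of the KO UMIs in 1 cell and 75 of the WT UMIs in 1 cell. Gzmd, Gzme and Gzmf had 0 UMIs in KO and 10, 22 and 149 UMIs in WT in these T cells, each in 1 WT cell. Gzmb had a log2 ratio of 0.68 in lineage-restricted NK cells, against 0.29 in these T cells and 0.18 in CD8 T cells. Gzma had -0.21 in NK cells, against -0.50 in T cells with NK receptors and -1.51 in CD8 T cells. Ccl5 had -0.31 in NK cells, against -0.73 in T cells with NK receptors and -0.65 in CD8 T cells.

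Set against CD8 T cells of the same library, NK cells are described here without weight on the differences, since the rule chose them by related genes. Of 2816 genes, 109 (3.87%) were higher and 72 (2.56%) lower past 2-fold in both libraries. Gzma had log2 ratios of 5.24 in KO and 3.94 in WT, Prf1 2.89 and 3.52, Eomes 2.61 and 2.76, and Irf8, a transcription factor, 2.88 and 4.38. Styk1, a kinase-like receptor, Klri2 and Klrb1a stood above 6 in both libraries. Lower in NK cells were Cxcr6, a residency chemokine receptor (-4.73 in KO, -4.05 in WT), Gzmk (-3.48 in KO, -4.72 in WT), Pdcd1 and Il7r (-3.10 in KO, -1.39 in WT).

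Against T cells with NK receptors, 33 of 2883 genes (1.14%) were higher and 44 (1.53%) lower in NK cells of both libraries. Cma1 (5.25 in KO, 3.23 in WT), Itgam (1.87 in KO, 2.59 in WT), Irf8 (1.62 in KO, 2.1 in WT), Prf1 (1.44 in KO, 1.96 in WT), Gzma (1.65 in KO, 1.36 in WT) and Eomes (1.30 in KO, 1.17 in WT) were higher. Cxcr6 (-3.52 in KO, -3.06 in WT), Gzmk (-2.51 in KO, -3.38 in WT), Ctla4 (-2.55 in KO, -2.59 in WT) and Il7r (-2.72 in KO, -1.90 in WT) were lower. These are differences of summed levels, and many T cells with NK receptors held the same genes. Gzma was found in 48.6% of them in KO and 58.0% in WT, Prf1 in 47.3% and 49.4%, Eomes in 40.5% and 39.5%, and Gzmk in 28.4% and 35.8%. Against all other kept cells, 207 of 3003 genes (6.89%) were higher and 284 (9.46%) lower in NK cells of both libraries.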

How the data were processed

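Single-cell RNA sequencing of CD45+ cells sorted from B16F10 tumours was used, with 1 KO and 1 WT library of 3 pooled mice each. Per the labels' protocols, 6000 to 8000 cells were targeted with the 10x 3' kit, version 3, at about 48000 reads per cell. The deposited matrices hold raw UMI counts for 55450 genes, with no normalization by the authors, and no barcode holds under 500 UMIs. Cell Ranger is given as 4.0.0 per the file headers and as 3.1.0 per the submitters' processing notes, which also list Seurat 4.0.1, bcl2fastq 2.20 and the build GRCm38. Coordinates are those of GENCODE for GRCm38.

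No doublet caller was run. UMIs were summed over NK cells of each library and scaled to CPM with python 3.11.15, numpy 2.4.6, scipy 1.17.1 and pandas 2.3.3. Figures were drawn with matplotlib 3.10.9. Levels carry exact Poisson, shares exact binomial (Clopper-Pearson) and ratios exact conditional binomial 95% intervals. UMIs without replicate libraries give counting error only. A gene was measured at a mean of at least 50 CPM and counted past 1.5-fold between libraries, or past 2-fold in both libraries between groups of cells, where a side at 0 was set to the floor of 3 UMIs. The steps were tested on simulated counts.

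The members and gene lists were chosen with earlier results of these data known. Named genes were the markers of the rule, Eomes, Itga1, granzymes and Prf1. To these came the 10 highest and 10 lowest ratios, without sex-linked, haemoglobin, immunoglobulin, T cell receptor, mitochondrial and ribosomal genes and gene models and without genes at under 0.5 times the level of the other kept cells, and list members past the fold. Lineage-restricted cells lack at least 1% of UMIs from the 4 antigen presentation genes or from Lyz2 and at least 10 UMIs of 5 basophil genes (Mcpt8, Cpa3, Fcer1a, Ms4a2, Hdc). T cells with NK receptors held at least 2 Cd3 UMIs. Markers of type 2 innate lymphoid cells summed to 102 CPM in KO and 96.7 CPM in WT, plasmacytoid dendritic cell markers to 81.5 and 108 CPM, erythroid and platelet markers to 1.92 and 22.8 CPM, and stromal markers to 67.1 and 104 CPM. Of the potassium channel genes 1 was measured and 0 were past the fold. A few genes that these rules name are not reported here.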

Additional observations from a re-analysis of the deposited data

How the results depend on the processing

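No paired analysis was possible because each genotype has 1 library, and leaving out a replicate was not possible either. The ratio of KO to WT shares of NK cells was 1.75, and became 2.15 with 0 UMIs of Cd3, Cd79a, Csf1r, C1qa and Siglech and 3.01 over T and NK cells. The 118 genes higher in KO became 66 with 5 or more receptor UMIs, 381 from 20 CPM, 50 past 2-fold, 72 in lineage-restricted cells and 61 also without the Gzmc cells. The 129 lower genes became 197 by the mean over cells, 84 with 5 or more receptor UMIs, 212 after thinning to 2000 UMIs, 465 from 20 CPM and 16 past 2-fold. The ratio of KO to WT Itga1+ shares, 1.86, turned to 0.847 thinned to 1000 UMIs and 0.900 at 2 or more UMIs, but was 1.33 thinned to 2000 UMIs and 1.56 so in lineage-restricted cells. That of Eomes-Itga1+ cells, 1.57, turned to 0.705 thinned to 1000 UMIs and was 1.17 thinned to 2000 UMIs. Between Eomes-Itga1+ and Eomes+Itga1- cells, the 47 higher and 20 lower genes became 82 and 49 with a thinned split, 146 and 34 at 2 or more UMIs, 178 and 109 past 1.5-fold and 99 and 32 in lineage-restricted cells, and the higher genes 241 from 20 CPM.

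The log2 ratio of KO over WT of Gzma, -0.35, was -0.20 thinned, -0.46 with 0 other-lineage UMIs, -0.022 by the mean over cells, -0.21 in lineage-restricted cells and -0.10 also without the Gzmc cells. That of Gzmb, 0.52, was 0.35 with 0 other-lineage UMIs, 0.71 by the mean over cells and 0.68 in lineage-restricted cells. That of Gzmc, 1.45, was 1.83 thinned and 2.05 by the mean over cells, and -0.55 once its own cells were left out. That of Prf1, -0.18, was -0.40 with 0 other-lineage UMIs and 0.044 by the mean over cells. Without the 5% of cells with most UMIs, Cxcl3 turned to 0.27 and Thbs1 to 0.57, with 5 or more receptor UMIs Cxcl9 turned to -1.35, and without other-lineage and Gzmc cells Bcl2a1b turned to -0.20, Ms4a4c to -0.48 and Spp1 to -0.69. Beyond the cells left out, the causes were not tested. Of 38 named genes past 1.5-fold, 38 stayed past it the same way under both other scalings, 37 by the mean over cells, 36 without the 5% of cells with most UMIs, 35 with 5 or more receptor UMIs, 34 in lineage-restricted cells, 31 with 0 other-lineage UMIs and 28 after thinning. Without other-lineage and Gzmc cells 25 of 37 did. Lineage-restricted cells, the Gzmc settings and leaving out the cell of most UMIs of a gene were chosen after seeing the data. At a median of 4603 UMIs per NK cell in KO and 3516 in WT, a cell without an Eomes or Itga1 UMI is not shown to lack the gene.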
